A study of Arabidopsis thaliana with 6 samples.

Results

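The plastid NADH dehydrogenase-like (NDH) complex sits in the thylakoid membrane and carries electrons from ferredoxin to plastoquinone. It serves cyclic electron flow around photosystem I and chlororespiration, and its core is related to respiratory complex I. Part of the complex is encoded in the plastid genome by the ndh genes and part in the nucleus. In leaves it is a minor complex beside the photosystems.

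The genes described here were ndhA and ndhC to ndhK. They were chosen by name in the platform annotation, with no measured value in the rule. Each had 1 probe set that belongs to exactly 1 gene, which gave 10 genes and 10 probe sets out of 22746 non-control probe sets. A further 59 plastid genes had such a probe set. The gene ndhB lies in the inverted repeat in duplicate copies and was left out.

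RNA came from suspension-cultured cells of Arabidopsis thaliana and was measured on 6 ATH1 arrays. The 3 control arrays carry no treatment label, and the 3 others are labelled as from cells given 0.1 mM isoxaben, a herbicide that blocks cellulose synthesis. All cultures grew in Murashige and Skoog medium with sucrose, naphthalene acetic acid and kinetin. The labels give no accession, culture line, light, temperature or duration of exposure, and they name no solvent for the controls. Whether each replicate was a culture of its own is not stated. The p-values therefore measure array-to-array spread within a group, part or all of which could be technical. The titles split the arrays into a first set (replicate 1 of each group) and a second set (replicates 2 and 3). Isoxaben replicate 1 is named isoxaben by title and treatment, but its source name has DCB instead. The labels thus conflict on what the cells of this array received, and every change within the first set rests on it. Results without it are given below. Control replicate 1 had 7023 outlier cells per the labels, against 160 to 613 on the other arrays.

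Most ndh genes were higher with isoxaben. Values were compared as log2(signal + 16) with limma, at a Benjamini-Hochberg adjusted p under 0.05 over all probe sets tested. Of the 10 genes, 9 passed a filter on dim probe sets set at a mean signal of about 22.1. Of these, ndhA, ndhC, ndhD, ndhH, ndhI, ndhJ and ndhK rose, none was called lower, and ndhE and ndhG did not pass. These 7 of 9 stand beside 29.4% of all tested probe sets called higher and 27.2% called lower. In a fit of all probe sets with no filter, 6 of the 10 ndh genes were higher and none lower, beside 18.1% and 16.3% of all probe sets. No ndh gene was lower at an unadjusted p under 0.05 in either limma fit (0 and 0), but neither fit used the sets or replicate numbers. With replicate number or title set as a block, ndhG was called lower (limma adjusted p = 0.00737 and 0.00317). With title set as a block and no filter, ndhF was too (0.0242). The median log2 change of the 10 genes was 0.93, and that of all probe sets in the same fit was -0.0066. Every isoxaben array lay above every control array for 7 of the 10 genes, and below for 0, beside 23.6% and 21.4% of all probe sets. In these bulk samples, more plastids or cells with active plastids and more RNA per plastid cannot be told apart. RNA was primed with oligo-dT, and ribosomal RNA, which lacks a poly(A) tail, also read higher on the isoxaben arrays (values below). The part of this in the ndh results was not tested.

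**Figure D1:**
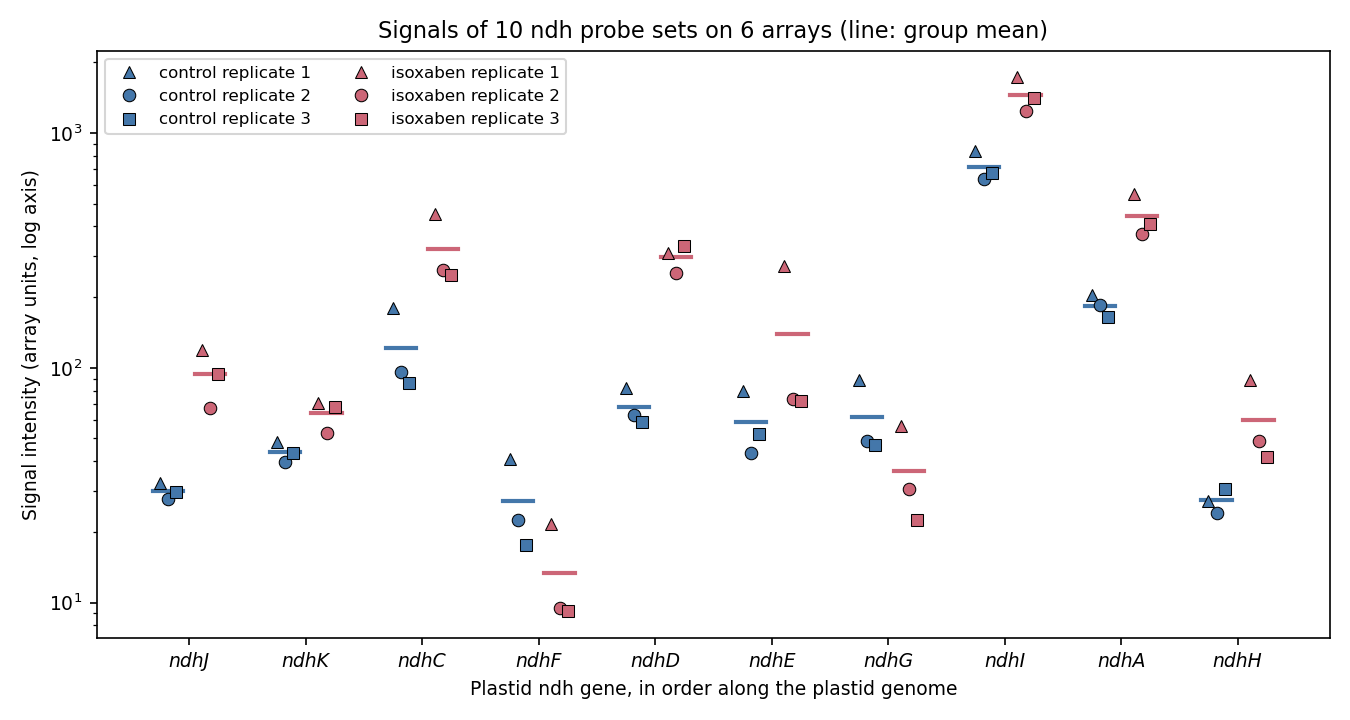
Signal intensity of each ndh probe set on each array, on a log axis, with control arrays in blue, isoxaben arrays in red, 1 marker shape per replicate number and a line at the group mean. Groups are apart for 7 genes and overlap for ndhF, ndhE and ndhG, and levels of different probe sets should not be set against each other.

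NdhH, NdhI, NdhJ and NdhK form the stroma-side part of the core, and all 4 of their genes rose. With no filter, 3 of the 4 were called higher. Among the other plastid genes 67.2% were called higher with the filter and 62.7% without it. NdhI and NdhK carry iron-sulfur clusters. The signal of ndhI was 838.4, 633.5 and 677.5 on control replicates 1, 2 and 3, and 1722.4, 1240.5 and 1407.1 on isoxaben replicates 1, 2 and 3. Every isoxaben array lay above every control array. The group means were 717 ± 108 (SD, n = 3) and 1457 ± 245 (SD, n = 3), a 2.03-fold difference, and the log2 change was 1.00 ± 0.14 (SE, limma adjusted p = 0.000221).

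For ndhJ the control signals were 32.4, 27.6 and 29.6 and the isoxaben signals 119.3, 67.7 and 94.4. The control signals were low on the array and close together, and the groups did not overlap. The log2 change was 1.23 ± 0.18 (SE, limma adjusted p = 0.000212), with means of 29.9 ± 2.41 and 93.8 ± 25.8 (SD, n = 3 each). For ndhH, whose product lies in the catalytic core next to the iron-sulfur subunits, the control signals were 27.1, 24.1 and 30.5 and the isoxaben signals 88.8, 48.7 and 41.6. Isoxaben replicate 1 was the highest array, and the groups did not overlap. The log2 change of ndhH was 0.76 ± 0.21 (SE, limma adjusted p = 0.0126), and 0.50 within the second title set.

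The smallest rise was that of ndhK. Its control signals were 48.5, 39.7 and 43.3 and its isoxaben signals 71.1, 52.9 and 68.4, so the groups did not overlap but came close. The log2 change was 0.42 ± 0.14 (SE, limma adjusted p = 0.0283). The call was lost with no filter (adjusted p = 0.0668) and without control replicate 2 or 3 or isoxaben replicate 1 or 3 (0.0768 to 0.0972).

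The other 6 genes encode membrane subunits, and they did not move alike. NdhD and NdhF are large antiporter-like subunits of the proton-pumping arm. The largest change among the ndh genes was that of ndhD, with control signals of 82.3, 62.7 and 58.8 and isoxaben signals of 309.4, 252.6 and 330.0. All isoxaben arrays were far above the controls, and isoxaben replicate 1 lay between the other 2. The means were 67.9 ± 12.6 and 297 ± 40.1 (SD, n = 3 each), a 4.38-fold difference, and the log2 change was 1.90 ± 0.15 (SE, limma adjusted p = 3.52e-06).

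The gene ndhF was dim. Its signals were 40.9, 22.5 and 17.6 in control and 21.6, 9.5 and 9.2 in isoxaben cultures. Within each title set the isoxaben arrays were lower, but the isoxaben signal of the first set lay above a control signal of the second, so the groups overlapped. The gene did not pass the filter. In the fit with no filter its log2 change was -0.54 ± 0.25 (SE, limma adjusted p = 0.152). With title set as a block the adjusted p was 0.0242, and with replicate number as a block it was 0.0560. In the second set alone it was 0.0376, and with median centring 0.0464. Without control replicate 1 the change was -0.32 (adjusted p = 0.309).

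NdhA joins the membrane arm to the stroma-side arm. For ndhA the control signals were 203.3, 184.2 and 164.1 and the isoxaben signals 551.0, 372.2 and 409.0. The groups were well apart, with a log2 change of 1.19 ± 0.15 (SE, limma adjusted p = 0.000103).

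NdhC, NdhE and NdhG are small membrane subunits, and their genes gave 3 different results. For ndhC the control signals were 180.2, 96.2 and 86.5 and the isoxaben signals 451.5, 262.0 and 249.1. Replicate 1 was the highest array in each group, and the groups did not overlap. The log2 change was 1.31 ± 0.27 (SE, limma adjusted p = 0.00235).

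For ndhE the control signals were 80.0, 43.5 and 52.2 and the isoxaben signals 270.9, 73.9 and 72.3. Isoxaben replicate 1 stood far above the other 2, which lay below control replicate 1. The log2 change of 0.85 ± 0.40 (SE) missed the threshold (limma adjusted p = 0.0992). The change was 1.58 within the first title set and 0.48 within the second. It passed with replicate number as a block (adjusted p = 0.0101) and within the second set alone (0.00533). Without isoxaben replicate 1 the change was 0.29 (adjusted p = 0.283), and without control replicate 1 it was 1.05 (0.0489). The difference between the sets was not tested.

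For ndhG the control signals were 89.1, 48.8 and 47.1 and the isoxaben signals 56.6, 30.4 and 22.4. As for ndhF, isoxaben was lower within each set while the groups overlapped. The log2 change was -0.58 ± 0.26 (SE, limma adjusted p = 0.0885). It passed as lower with replicate number as a block (adjusted p = 0.00737), with title set as a block (0.00317) and without isoxaben replicate 1 (-0.84, 0.0212). Without control replicate 1 it was -0.34 (adjusted p = 0.221), and without isoxaben replicate 3 it was -0.38 (0.294). With the replicate block, 8 ndh genes were thus higher and 1 lower of 9, against 7 and 0 without it, beside 31.1% and 28.7% of all probe sets in the blocked fit.

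**Figure D2:**
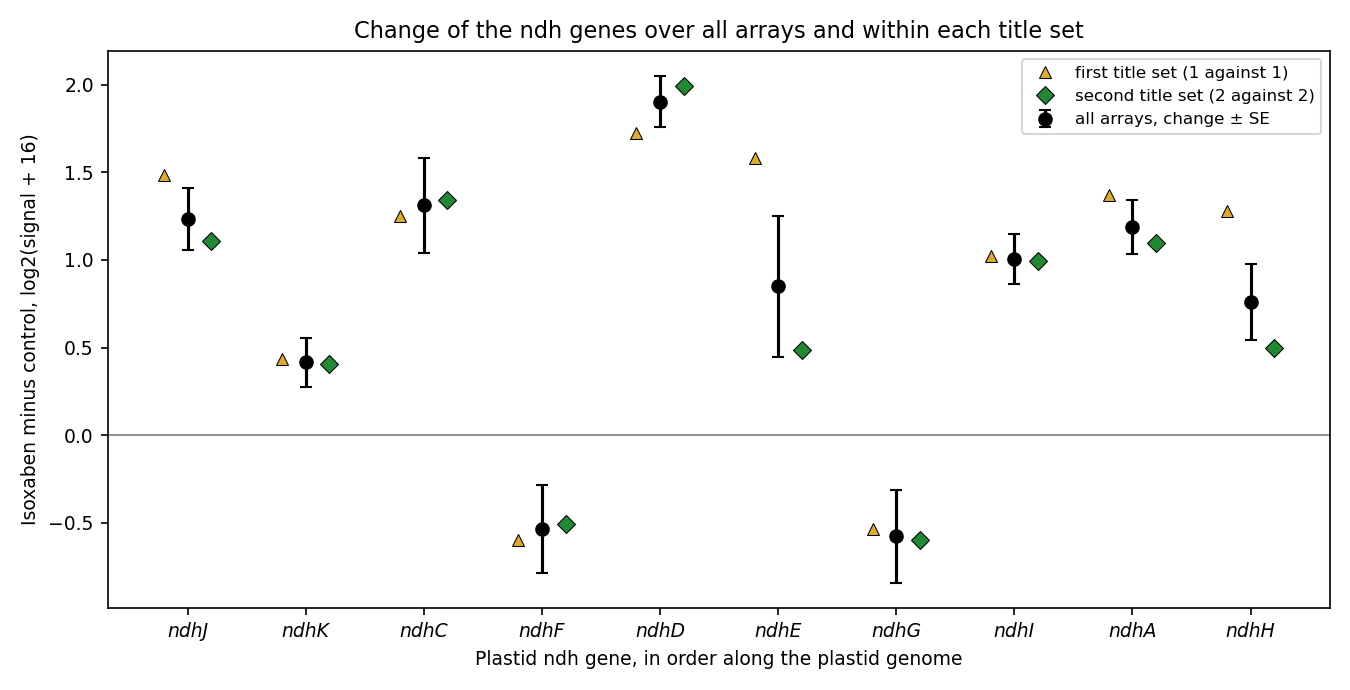
Isoxaben minus control on the log2(signal + 16) scale for each ndh gene in genome order, as the fitted change over all arrays ± SE (black), within the first title set (1 array against 1, triangles) and within the second (2 against 2, diamonds). The sign is the same in both sets for each of the 10 genes, with ndhF and ndhG below 0 and ndhE and ndhH further from 0 in the first set than in the second.

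The first title set gave higher signals for these genes in both groups. Control replicate 1 was the highest control array for 9 of the 10 ndh genes and isoxaben replicate 1 the highest isoxaben array for 9 of 10. Over all probe sets the shares were 53.8% and 30.7%, and among the other 59 plastid genes 66.1% and 49.2%. The ndh genes ndhH (control) and ndhD (isoxaben) were the exceptions. For ndhE, isoxaben replicate 1 was 3.71 times the mean of the other 2 isoxaben arrays, and for ndhF 2.31 times. Within the first set 8 of 10 ndh genes were higher with isoxaben, with a median log2 change of 1.27, and within the second set 8 of 10, with a median of 0.75. Of the other 59 plastid genes, 46 and 50 were higher in the first and second sets. Of all 22746 probe sets, 9127 and 13231 were higher, with medians of -0.094 and 0.051. In a limma fit of the second set alone, which leaves out both arrays of replicate 1, 8 of 9 genes were higher and 1 lower, beside 35.3% and 30.9% of all probe sets. Without isoxaben replicate 1 alone, 6 were higher and 1, ndhG, lower, beside 26.5% and 25.9% of all probe sets.

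Plastid genes are transcribed largely in clusters, from which long messages are cut into shorter ones, so the members were also compared by gene order. Only position was used and not strand, so genes next to each other here need not share a message. In the RefSeq gene table ndhJ, ndhK and ndhC follow each other directly. A second row runs ndhD, psaC, ndhE, ndhG, ndhI, ndhA, ndhH, with ccsA before it and rps15 after it. The gene ndhF stands apart from both, next to rpl32. In the first row all 3 genes rose, with log2 changes from 0.42 to 1.31. In the second row 4 of 6 ndh genes rose, and the changes ran from -0.58 (ndhG) to 1.90 (ndhD). These counts stand beside 67.2% of the other tested plastid genes. With no filter, 2 of the 3 and 4 of the 6 were called higher, beside 62.7%.

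Some neighbours in these rows changed unequally, as did many neighbouring pairs of the other plastid genes. Taking the difference between neighbours within an array removes only what both genes of an array share equally. The higher signals of the first set were not equal between genes, so they were not fully removed. Control replicate 1 was 1.17 times the mean of the other 2 control arrays for ndhK and 1.97 times for ndhC. Of 7 neighbouring pairs, with ndhD and ndhE counted across psaC, the control and isoxaben differences did not overlap for 5. Among 41 directly adjacent pairs of the other plastid genes they did not overlap for 63.4%. With a pseudocount of 1 in place of 16, a setting added like that of 64 after seeing the data, the counts were 3 of 7 and 68.3%, as ndhK less ndhC and ndhA less ndhH then overlapped, and with 64 they were 5 of 7 and 63.4%. Relative to ndhI, ndhG shifted by -1.58 ± 0.23 (SE, n = 3 against 3, log2) with isoxaben, and ndhE shifted by 1.43 ± 0.32 relative to ndhG. On every isoxaben array ndhG was thus lower relative to ndhE and to ndhI than on any control array. In the other row, ndhJ shifted by 0.82 ± 0.11 relative to ndhK, and ndhK by -0.89 ± 0.33 relative to ndhC. The pair ndhI and ndhA shifted by -0.18 ± 0.09 and its groups overlapped, also with pseudocounts of 1 (-0.23) and 64 (-0.06). The pair ndhD and ndhE, which psaC separates, shifted by 1.05 ± 0.55 and overlapped, since isoxaben replicate 1 lay with the controls. These pairs were set by gene order, and the shifts are descriptions without a test. The size of several shifts depended on the pseudocount. With 1 and 64, ndhE shifted by 1.77 and 0.92 relative to ndhG, and ndhG by -1.80 and -1.28 relative to ndhI. With 1, ndhA shifted by 0.22 ± 0.25 relative to ndhH and by 0.43 ± 0.18 with 16, and the shift of ndhJ relative to ndhK was 1.05 with 1 and 0.49 with 64.

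**Figure D3:**
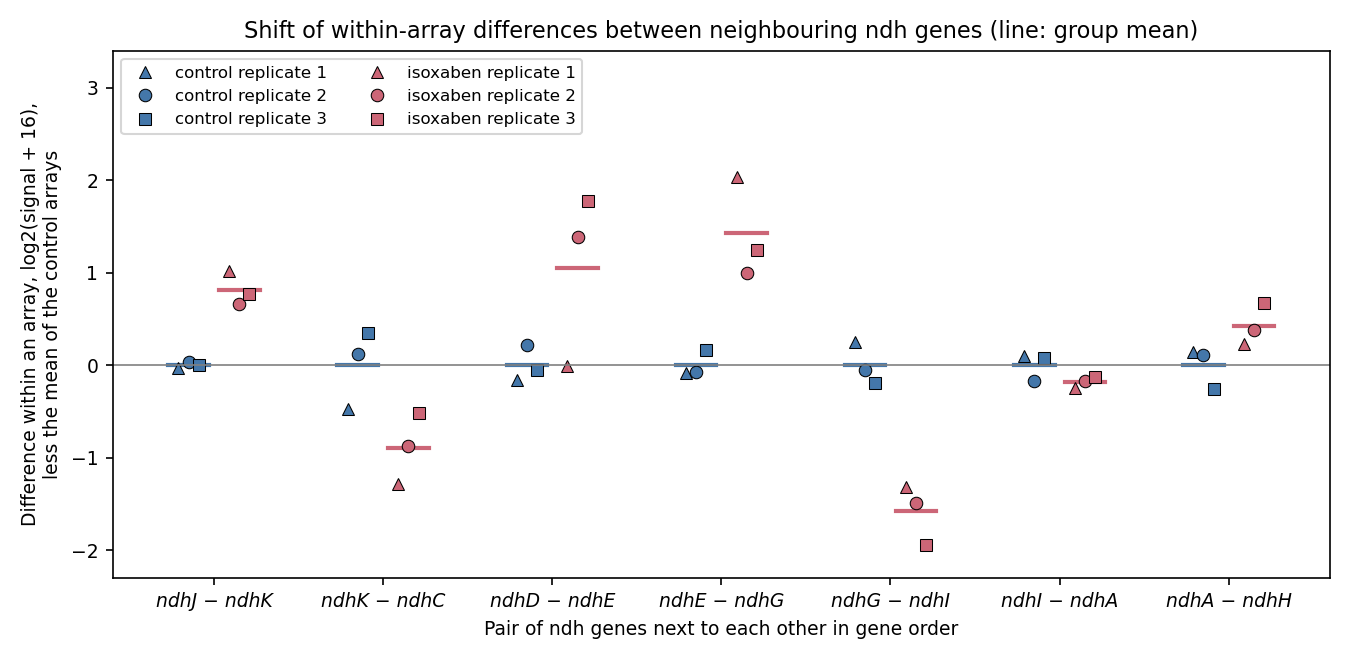
Difference between ndh genes next to each other in gene order, taken within each array on the log2(signal + 16) scale and shown less the mean of the control arrays, for 3 control (blue) and 3 isoxaben (red) arrays with lines at group means. The isoxaben arrays lie above the controls for ndhJ less ndhK, ndhE less ndhG and ndhA less ndhH, below them for ndhK less ndhC and ndhG less ndhI, and among or partly among them for the other pairs.

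The plastid genes next to the ndh genes, taken by position without regard to strand, also differed. The gene ccsA, needed for attaching haem to plastid cytochromes, had control signals of 498.9, 469.5 and 467.7 and isoxaben signals of 1600.5, 1546.0 and 2091.2. Its log2 change of 1.82 ± 0.12 (SE, limma adjusted p = 1.66e-06) was close to that of ndhD beside it. The small ribosomal subunit gene rps15, after ndhH, rose by 1.86 ± 0.38 (limma adjusted p = 0.00223), with control signals of 96.9, 43.5 and 34.7 and isoxaben signals of 453.5, 152.8 and 191.5. As for ndhH and ndhE, isoxaben replicate 1 was the highest of its group. For psaC, a photosystem I subunit gene inside the row, the control signals were 50.4, 29.9 and 20.1 and the isoxaben signals 52.8, 59.1 and 39.2. These overlapped, and the log2 change of 0.46 ± 0.22 did not pass (limma adjusted p = 0.109). Beside ndhF, the ribosomal protein gene rpl32 rose by 0.79 ± 0.21 (limma adjusted p = 0.0108), while ndhF itself had -0.54.

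The ndh genes were set beside the other plastid genes without a test of the difference. Of the other 59 plastid genes, 58 passed the filter, and 39 were higher and 4 lower, which is 67.2% and 6.90%. With no filter, 37 (62.7%) were higher and 4 (6.78%) lower. The median log2 change with no filter was 0.93 for the ndh genes and 1.07 for the other plastid genes. By name group, the medians ran from 0.15 for 6 pet genes of the cytochrome complex, through 0.56 for 5 psa and 0.81 for 15 psb photosystem genes and 1.11 for 6 atp synthase genes, to 1.40 for 8 rps and 1.67 for 4 rpo polymerase genes. The range within the ndh genes (-0.58 to 1.90) lay inside that of the other plastid genes (-2.11 to 2.41).

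**Figure D4:**
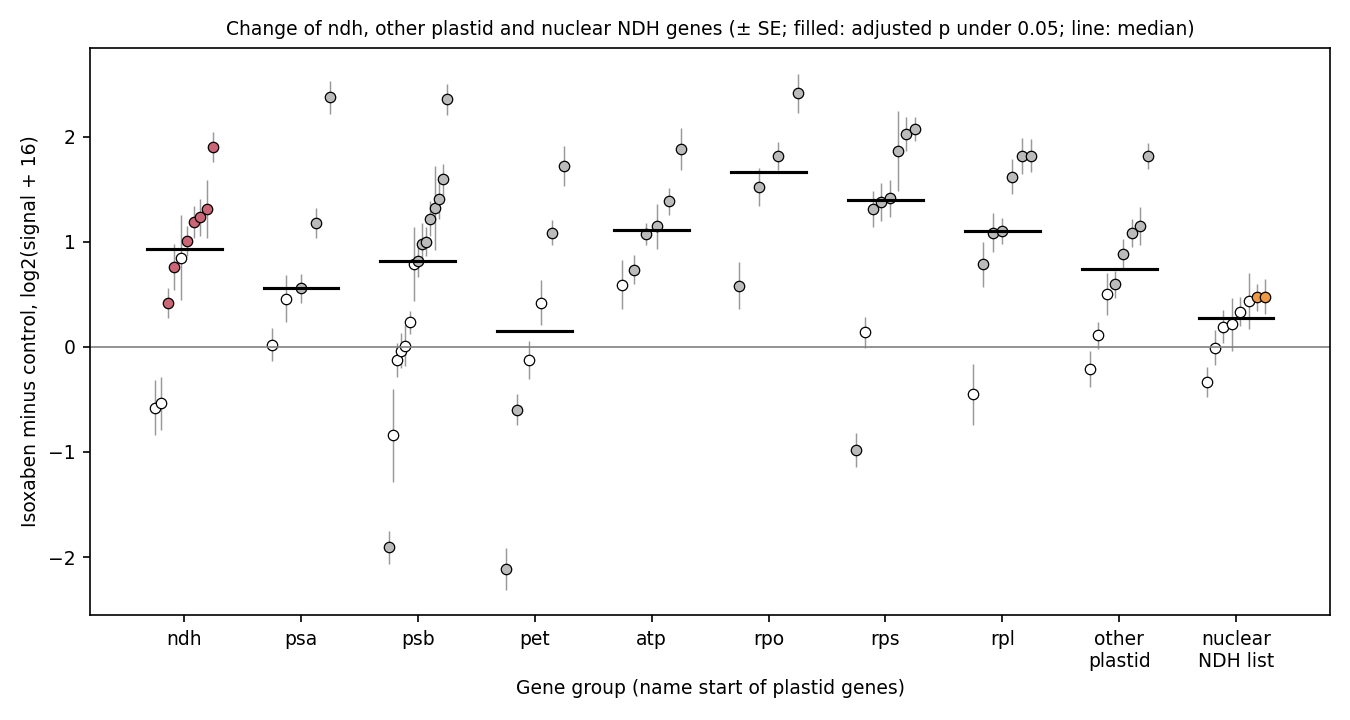
Isoxaben minus control on the log2(signal + 16) scale (± SE) for the ndh genes, the other plastid genes by name start, and the nuclear NDH list, with filled points for a limma adjusted p under 0.05 and a line at each median. Genes that did not pass the filter take their values from the fit with no filter, and the ndh genes (-0.58 to 1.90) lie inside the range of the other plastid genes (-2.11 to 2.41).

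Nuclear genes listed for the complex or its messages showed small differences on the log2(signal + 16) scale. That scale shrinks the differences of dim probe sets. By group means, OTP85 differed 1.72-fold and the dimmer CRR28 2.29-fold. Of 32 nuclear genes listed for subunits, assembly, message editing and transcription, 8 had a probe set of 1 gene, and 4 passed the filter. OTP85, a factor that edits plastid messages including that of ndhD, rose from 23.9, 17.3 and 17.9 to 33.6, 26.7 and 41.4 (log2 change 0.48 ± 0.17, limma adjusted p = 0.0344). With replicate number as a block it did not pass (adjusted p = 0.0511). The control mean of OTP85, 19.7, lay below the filter signal of 22.1, and its isoxaben mean of 33.9 lay above. It thus passed the filter only through its isoxaben arrays, so its call and the count it makes are no separate support. The count of 1 of 4 stands beside the 29.4% of all tested probe sets that were higher. The subunit genes NdhN (0.22 ± 0.25) and NdhS (0.19 ± 0.16) and the editing factor OTP84 (-0.01 ± 0.17) did not pass. Of NdhN, the control signals of 68.9, 25.5 and 32.2 spanned the isoxaben signals of 40.3, 46.6 and 59.4.

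The other 4 nuclear genes were dim, with mean signals of 6.87 to 23.9 in either group. In the fit with no filter the editing factor CRR28 was called higher (0.47 ± 0.13, limma adjusted p = 0.0215), from 5.2, 7.0 and 8.4 to 15.7, 12.5 and 19.0, all below the filter signal. OTP85 was not called there (adjusted p = 0.0709). The editing factors CRR21 (0.34 ± 0.14) and CRR22 (0.44 ± 0.27) and the subunit gene NdhL (-0.33 ± 0.14) did not pass. NdhL had control signals of 24.0, 17.6 and 15.8 and isoxaben signals of 10.6, 11.2 and 13.5, so its groups did not overlap and isoxaben was lower. None of the 8 was called lower by limma, and NdhL alone was lower at an unadjusted p under 0.05 (1 of 8). Groups did not overlap for 45.0% of all probe sets. PGRL1B, of the PGR5 route of cyclic electron flow that works beside the NDH complex, changed by 0.13 ± 0.14 and did not pass.

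The probe sets most like the ndh genes were sought over the 6 arrays among 1038 tested probe sets with a gene name. Likeness was the root mean square difference from the mean profile of the 9 tested members, each profile centred on its own mean. The 5 closest were NRPA1, the large subunit of RNA polymerase I (0.08), the RNA helicase gene PRH75 (0.098), nad4, a subunit gene of respiratory complex I (0.105), the plastid photosystem II gene psbJ (0.12) and SERRATE, of microRNA processing (0.122). Signals of nad4, named by the platform annotation, were 158.9, 130.6 and 132.1 in control and 392.3, 220.5 and 292.2 in isoxaben cultures. Its highest array was isoxaben replicate 1, as for several ndh genes, but a choice by likeness of profile favours this and makes it no separate finding. Among the members themselves, ndhI was closest to their mean (0.104) and ndhG farthest (0.756).

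Other measures moved with the ndh genes. Of 24 green tissue markers, nuclear photosynthesis genes, 4 had a probe set of 1 gene (LHCB4.1, PSAE-1, PSBW and PSBY). Their summed signal was 209.6 to 262.7 on control and 1085.4 to 1308.0 on isoxaben arrays, and unlike several ndh genes it was lowest on replicate 1 of each group. The 2 root hair markers measured summed to 13.6 to 21.1 in control and 21.8 to 28.6 in isoxaben, both dim. No marker of pollen, seed or xylem on the lists had a probe set of 1 gene. RNA was primed with oligo-dT, and plastid messages as a rule carry no stable poly(A) tail. Ribosomal RNA, which also lacks such a tail, had control probe sets on the array. Those for 25S RNA read 4.9 to 7.2 on control and 17.6 to 49.3 on isoxaben arrays, and those for 5S RNA 5.9 to 12.5 and 33.0 to 48.8. The ratio of 3′ to 5′ signal was 0.931 to 1.061 in control and 1.079 to 1.172 in isoxaben for GAPDH, while for actin and ubiquitin the groups overlapped. The part of any of these in the ndh results was not tested.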

How the data were processed

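The deposited table holds 1 linear signal intensity per probe set on each of 6 arrays, from biotin-labelled cRNA per the labels' protocols. No source used here names the algorithm that turned probes into intensity. The authors had scaled the deposited intensity values, since the trimmed mean (2% off each end) came to 100.006 to 100.008 on each array. Median signals were 31.6 to 42.0, and having 6 arrays limits the precision. Leaving out 64 control probe sets, isoxaben was tested against control on log2(signal + 16) with limma 3.58.1 in R 4.3.3 (intensity trend, no covariate, two-sided, Benjamini-Hochberg, threshold 0.05). Probe sets below the 40th percentile of mean log2 value (signal 22.1) were dropped, leaving 13648. Members that the filter dropped were read from the same fit with no filter. The fit was also run on simulated arrays with independent noise, no difference between title sets and changes added to brighter probe sets only. That run bears on neither dim genes nor the title sets. Names came from the platform annotation, updated through gene identifiers with RefSeq (TAIR10.1), which also gave gene order. No sequence was used here. No pair of arrays shared over 1.44% of values exactly. Deviations of same-numbered arrays from their group means correlated at 0.207, 0.110 and 0.128. Replicates 2 and 3 crossed gave 0.101 and 0.118, and replicate 1 with 2 or 3 gave -0.1845 to -0.1381. These values follow the title sets and do not separate the pairing of replicate 2 from that of 3. The main fit used no block. Members, lists and tests were chosen with earlier results of these data known. The text names all members, their plastid neighbours, the nuclear list genes with a probe set, and the 5 most alike profiles. Alternatives were quantile and median normalization, pseudocounts 1 and 64, no filter and the 60th percentile, array weights, 1 prior variance for all, both blocks, the second set alone, and leaving out each array.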

Additional observations from a re-analysis of the deposited data

How the results depend on the processing

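Of 164 refits of single ndh genes, 144 left the call as it was, 15 added a call, 5 (all ndhK) lost it and none changed the sign. The calls of ndhA, ndhC, ndhD, ndhH, ndhI and ndhJ held under each alternative in which the gene was tested. The number of ndh genes called higher was 4 of 5 with the 60th percentile filter, since that filter tested fewer, and 6 to 8 when single arrays were left out. Among ndh genes that passed the filter, the number called lower was 1 (ndhG) rather than 0 under several alternatives. These were quantile normalization, median centring, array weights, the replicate block, the title set block and the second set alone. It was 0 to 1 when single arrays were left out. With no filter, ndhF was also called lower with median centring, the title set block and the second set alone. Of the other plastid genes, 7 rather than 4 were lower with array weights and in the second set alone. Of the nuclear list, 3 rather than 1 were higher with array weights, 2 in the second set alone, 0 with the replicate block, and 0 to 2 when single arrays were left out. The 60th percentile filter left none of these to test. The replicate block changed no other call of an ndh gene than those of ndhE and ndhG. The cause of these differences was not tested. Dim signals limit ndhF, ndhH and ndhJ most. With no filter, the median change of the 10 genes was 0.67 with a pseudocount of 64 and 1.03 with 1.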
